A study of Solanum lycopersicum with 24 samples.

Results

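In tomato leaves, 61 genes were close to silent at 25 °C and were read at appreciable levels after heat stress (HS). They were picked by their levels in the wild type (WT): a mean CPM below 0.5 in the WT control libraries and a mean CPM of 10 or more in the WT HS libraries, leaving out genes placed on no chromosome (1 such gene met both limits). These 61 genes stood among 24583 genes with 10 or more reads over all 24 libraries. CPM, the usual read count of a gene relative to the size of its library, was taken after scaling by the trimmed mean of M values (TMM). It is not corrected for gene length, so it compares a gene between libraries, not one gene with another.

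RNA-seq libraries had been made from leaves of rs2z35, rs2z36, the double mutant rs2z35 36 and WT, 3 libraries for each genotype after HS and 3 for each control. All plants were of the cultivar Moneymaker and 6 weeks old, and excised leaves were kept for 1 h at 40 °C (HS) or for 1 h at 25 °C (control). The single mutants carry CRISPR-Cas9 insertions or deletions of a single nucleotide that shift the reading frame, were homozygous in the T3 generation, and were crossed to give rs2z35 36. The study calls the 3 replicates biological, with several leaves pooled. How the plants were divided among them is not given in the sources used here. The p-values below thus measure the spread between these libraries, in HS as left by the batch adjustment described below. RS2Z35 and RS2Z36 are serine/arginine-rich (SR) proteins with zinc knuckles, a class of RNA-binding proteins that guide splice-site choice.

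In plants, heat releases heat stress transcription factors from chaperone control. They bind heat shock elements in promoters and switch on genes for small heat shock proteins (HSPs), larger chaperones and many further proteins, some of which are barely transcribed in unstressed leaves. Small HSPs bind unfolding proteins and keep them from aggregating.

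The HS libraries held between 16853134 and 23929283 counts and the control libraries between 18692423 and 22517273. The HS counts had been batch-adjusted with ComBat-Seq before deposit and the control counts had not, so that adjustment and the heat treatment cannot be told apart. The main fits took the adjusted counts as they were. Their standard errors (SE) and p-values, those of the heat responses included, make no allowance for variation that the adjustment had removed. The targeted genes followed the labels: RS2Z35 (Solyc05g054920) stood at 42.7–51.1 CPM in the HS libraries of rs2z35 and rs2z35 36, against 217–254 CPM in WT HS, and RS2Z36 (Solyc09g005980) at 84.7–93.8 CPM in the HS libraries of rs2z36 and rs2z35 36, against 104–126 CPM in WT HS. Leaf genes were abundant: genes described as the small subunit of ribulose bisphosphate carboxylase or as chlorophyll-binding (3 genes) summed to 2357–4877 CPM in HS and 3385–4782 CPM in control. Of the other cell type lists, described genes for pollen and anther (2 genes) summed to 9.60–13.6 CPM in HS and 4.23–5.84 CPM in control, those for glandular trichomes (4 genes) to 78.4–169 and 121–253 CPM, and those for seed (9 genes) to 242–296 and 84.2–116 CPM. Those for root had no described gene. None of these lists held one of the 61 genes, and their part in the results below was not tested.

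WT levels chose the genes and are given as a description only. Their WT HS means ran up to 362 CPM with a median of 25.1 CPM, and their WT control means up to 0.475 CPM with a median of 0.136 CPM. At the control limit, the members just inside were Solyc09g090760 (WT control mean 0.475 CPM) and Solyc03g096355 (0.471 CPM), and the genes just outside were Solyc09g074475 (0.520 CPM) and Solyc12g042830 (0.538 CPM). At the HS limit, Solyc09g074350 (WT HS mean 10.2 CPM) and Solyc01g006050 (10.6 CPM) were just inside, and Solyc05g015370 (9.28 CPM) and Solyc01g087095 (9.21 CPM) just outside. Small steps thus separated the genes on either side of each limit. Since the WT libraries made the choice, every comparison of a mutant with WT below reuses them and is no independent test.

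Every one of the 61 genes rose under HS in each mutant, whose libraries took no part in the choice. Each was called, that is, its log2FC exceeded 1 with an adjusted p under 0.01 (edgeR quasi-likelihood test, Benjamini-Hochberg over 24218 genes) in rs2z35, in rs2z36 and in rs2z35 36, where 11.5, 11.7 and 12.4% of all tested genes were called higher. The 3 HS libraries lay above the 3 control libraries for all 61 genes in each mutant, against 29.3, 28.4 and 29.2% of all genes. They lay below for none, against 31.2, 30.1 and 31.4% of all genes. The median log2FC of the 61 was 7.86 in rs2z35 (range 3.64 to 11.30), 7.81 in rs2z36 (3.71 to 9.96) and 7.86 in rs2z35 36 (3.55 to 11.32), beside −0.03, −0.03 and −0.04 over all tested genes. Without rs2z35 HS replicate 2, the deepest library, the rs2z35 median was 7.69.

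Few control reads stand under these ratios, so the fold of single genes is imprecise. Summed over the 61 genes, a mutant HS library held 48522 to 74792 counts and a mutant control library 396 to 545. Among genes with more than 3 reads over the 3 control libraries, HS over control was 207-fold in the median in rs2z35 (53 genes), 202-fold in rs2z36 (55 genes) and 191-fold in rs2z35 36 (54 genes), against 265-fold in WT (47 genes). These sets of genes differ between genotypes. Over all 61, with a lower bound for genes without a control read, the medians were 243, 222 and 240, against 341 in WT. The WT ratios rest on control levels that were chosen to be low. Silence was not complete: 40 of the 61 genes had at least 1 read in each of the 9 mutant control libraries. The genes closest to silence were Solyc06g066360, Solyc09g073015 and Solyc09g075600, each without a read in 6 of the 9. Solyc06g066360, with no description used here, had no read in any control library of rs2z35 or rs2z35 36, and its HS level was at least 133-fold and at least 134-fold higher there, taking 3 reads per control library as the limit that a count of 0 allows. In rs2z36, where a control library held reads of it, its ratio was 165, with a 95% counting interval of 83.5 to 381 that covers counting error only.

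**Figure D1:**
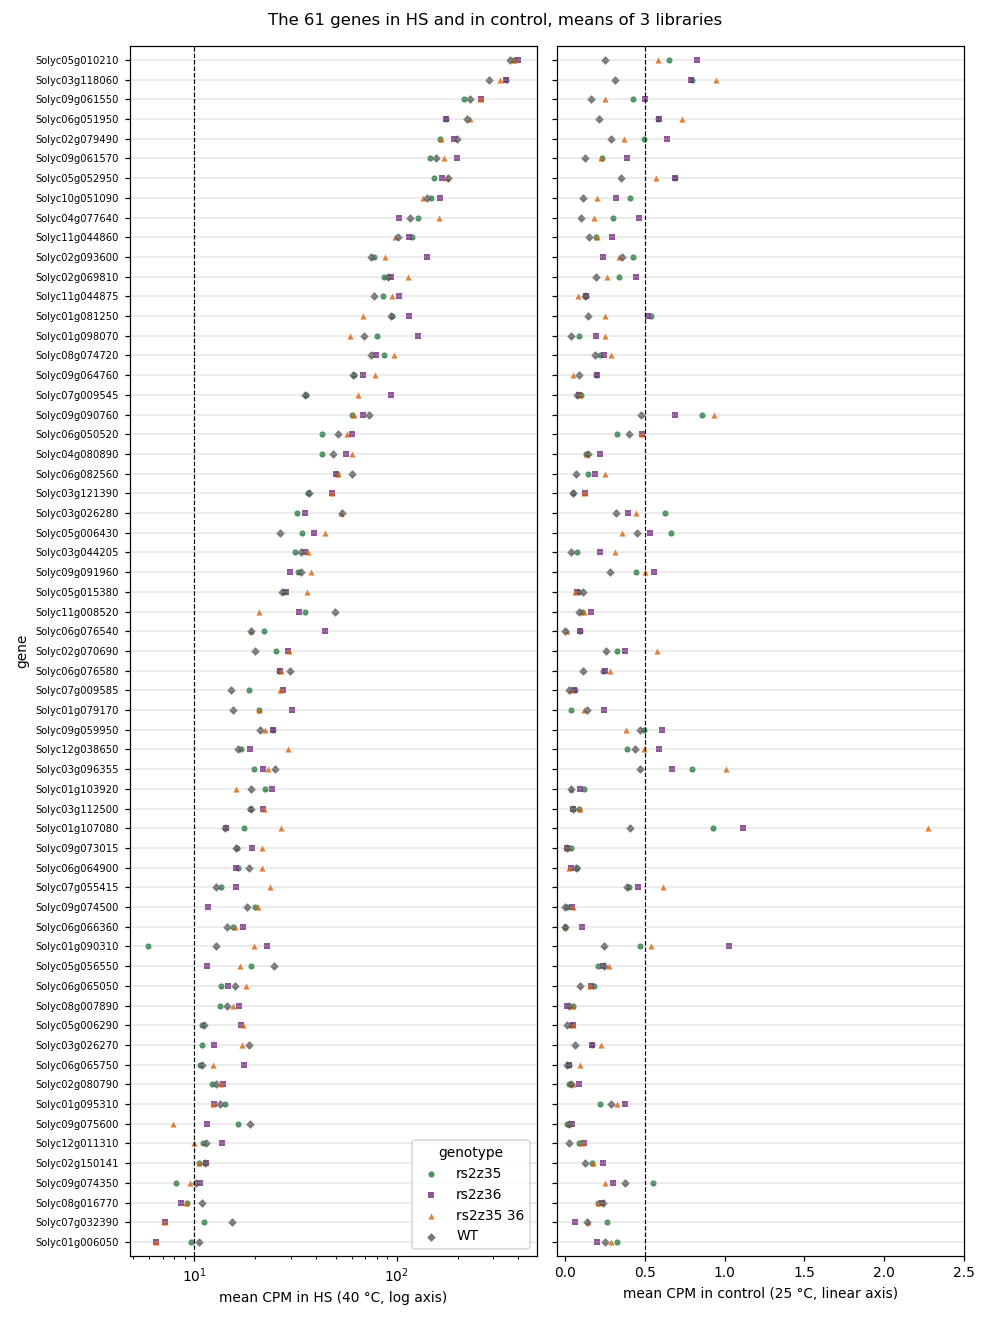
Mean CPM of each of the 61 genes (1 row each, ordered by mutant HS level) in HS (left, log axis) and in control (right, linear axis), with the limits as dashed lines, for rs2z35, rs2z36, rs2z35 36 and WT. In each mutant the HS points lie at 5.93 CPM or higher and the control points at 2.28 CPM or lower, and Solyc01g107080 stands out in rs2z35 36 control.

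A few genes held much of the summed CPM of the set, which is a share of reads and not of transcripts. In HS, 10, 14 and 10 of the 61 reached a mean of 100 CPM or more in rs2z35, rs2z36 and rs2z35 36, against 10 in WT, and the top 10 held 56.2, 54.3 and 55.2% of the summed HS CPM of the set in the mutants, against 55.6% in WT. The median gene stood at 25.3, 29.2 and 26.9 CPM in the HS means of the mutants, against 25.1 CPM in WT.

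The most read by CPM in mutant HS was Solyc05g010210, which carries an F-box domain, the module by which SCF ubiquitin ligases recognise their substrates. Its HS libraries held 334, 402 and 407 CPM in rs2z35, 431, 386 and 379.8 CPM in rs2z36 and 399.7, 399 and 339 CPM in rs2z35 36, against 367, 327 and 392 CPM in WT. Its control libraries held 0.891, 0.616 and 0.440 CPM in rs2z35, 0.950, 0.791 and 0.731 CPM in rs2z36 and 0.478, 0.528 and 0.733 CPM in rs2z35 36, against 0.151, 0.285 and 0.324 CPM in WT. The HS levels of the 4 genotypes overlapped, while every mutant control library stood above every WT control library. Its HS log2FC was 9.18 (SE 0.19, adjusted p = 9.64e-17) in rs2z35, 8.92 (SE 0.18, adjusted p = 1.11e-16) in rs2z36 and 9.34 (SE 0.19, adjusted p = 8.94e-17) in rs2z35 36.

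Next came Solyc03g118060, an NFU1 protein, of a family that hands iron-sulfur clusters on to other proteins. It held 337, 415 and 287 CPM in rs2z35 HS, 379.8, 277 and 382 CPM in rs2z36 HS and 325, 286 and 364 CPM in rs2z35 36 HS, against 266, 322 and 271 CPM in WT HS. In control it held 0.814, 0.847 and 0.720 CPM in rs2z35, 1.08, 0.625 and 0.662 CPM in rs2z36 and 0.757, 1.06 and 1.02 CPM in rs2z35 36, against 0.378, 0.357 and 0.203 CPM in WT. All 9 mutant control libraries again stood above the 3 of WT, and the control mean was over 0.5 CPM in each mutant. Even so its HS log2FC reached 8.76 (SE 0.23, adjusted p = 1.57e-15) in rs2z35, 8.78 (SE 0.23, adjusted p = 1.6e-15) in rs2z36 and 8.42 (SE 0.22, adjusted p = 1.81e-15) in rs2z35 36.

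Solyc09g061550, a lectin receptor kinase, is a membrane kinase of a family with a sugar-binding type of outer domain. It held 185, 265 and 199 CPM in rs2z35 HS, 273, 218 and 294 CPM in rs2z36 HS and 262, 278 and 239 CPM in rs2z35 36 HS, against 256, 199.9 and 235 CPM in WT HS, so the genotypes overlapped. Its HS log2FC was 8.96 (SE 0.24, adjusted p = 2.65e-15), 9.01 (SE 0.24, adjusted p = 2.1e-15) and 9.99 (SE 0.26, adjusted p = 1.49e-15) in rs2z35, rs2z36 and rs2z35 36. A gene that follows it on chromosome 9 with 1 gene between, Solyc09g061570, was also a member, and it held 132, 165 and 139.8 CPM in rs2z35 HS, 199, 193 and 205 CPM in rs2z36 HS and 184, 160.1 and 172 CPM in rs2z35 36 HS, against 164, 148 and 157 CPM in WT HS. The rs2z36 HS libraries of Solyc09g061570 were above those of the other genotypes, with a log2FC of 0.36 (SE 0.09, adjusted p = 0.0634) against WT that did not pass.

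Solyc06g051950 is described as nuclear migration protein nudC. In Arabidopsis a nudC-domain protein acts as a small-HSP-like chaperone and is needed for thermotolerance. Its HS libraries were uneven, with 136, 199 and 189.9 CPM in rs2z35, 174, 186 and 166 CPM in rs2z36 and 262, 270.4 and 161 CPM in rs2z35 36, against 241, 139.8 and 284 CPM in WT. Within WT and within rs2z35 36, single libraries differed by more than the means of the genotypes did. The HS log2FC was 8.21 (SE 0.31, adjusted p = 2.9e-13) in rs2z35, 8.22 (SE 0.31, adjusted p = 2.75e-13) in rs2z36 and 8.29 (SE 0.31, adjusted p = 1.89e-13) in rs2z35 36.

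Solyc04g077640, a serine carboxypeptidase, belongs to enzymes that trim proteins or transfer acyl groups. Its HS libraries held 83.6, 183 and 118 CPM in rs2z35, 117, 84.7 and 105 CPM in rs2z36 and 190.5, 125 and 173 CPM in rs2z35 36, against 124, 117 and 107 CPM in WT. Each rs2z35 36 library stood above each rs2z36 and each WT library, with a log2FC of 0.67 (SE 0.24, adjusted p = 0.33) against rs2z36 and 0.50 (SE 0.23, adjusted p = 0.36) against WT, neither past the threshold.

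The other members of the 10 most read, Solyc02g079490, Solyc05g052950, Solyc10g051090 and Solyc11g044860, have no description used here. Their single HS libraries ranged from 117 to 254 CPM for Solyc02g079490, 113 to 243 CPM for Solyc05g052950, 109 to 194 CPM for Solyc10g051090 and 83.1 to 133 CPM for Solyc11g044860 over the 4 genotypes. For the first 3 of these, rs2z35 HS replicate 2 was the highest rs2z35 library. That pattern was common within the set. Replicate 2 of rs2z35 HS was the highest of its group for 43 of the 61 genes, and replicate 3 of rs2z36 HS for 37. In the other HS groups, rs2z35 36 HS replicate 1 led for 26 and WT HS replicate 1 for 30. How often these libraries led over all genes was not tested.

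Descriptions were at hand for 28 of the 61 genes, and 33 had none. Genes described by an enzyme name ending in -ase were the largest described group with 9 genes. This group had HS log2FC of 4.25 to 8.96 in rs2z35, 3.71 to 9.07 in rs2z36 and 3.55 to 9.99 in rs2z35 36. Beside the lectin receptor kinase, the carboxypeptidase and an acyltransferase, it held Solyc01g081250, a glutathione S-transferase, an enzyme class that couples glutathione to reactive compounds. In single libraries Solyc01g081250 held 99.2, 66.5 and 118 CPM in rs2z35 HS, 130.1, 135 and 80.3 CPM in rs2z36 HS and 62.3, 85.6 and 56.1 CPM in rs2z35 36 HS, against 81.7, 81.8 and 118 CPM in WT HS, and all 4 genotypes overlapped. Solyc02g069810, a nucleic acid binding protein, held 107, 66.5 and 88.3 CPM in rs2z35 HS, 94.8, 114 and 71.6 CPM in rs2z36 HS and 117, 107 and 118 CPM in rs2z35 36 HS, against 69.3, 95.3 and 108 CPM in WT HS. Its rs2z35 36 libraries stood just above those of rs2z35 and overlapped those of rs2z36 and WT. Unknown proteins made up 5 members, and their HS log2FC was lower in the median than over all 61, at 5.43 in rs2z35, 6.65 in rs2z36 and 5.86 in rs2z35 36.

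Transcription factors came to 3 of the 28 members with a description. Solyc01g098070 is described as the MADS-box protein AGL21, which in Arabidopsis takes part in lateral root growth, and Solyc09g075600 as a GATA transcription factor-like protein. Solyc01g090310, ethylene-responsive transcription factor 13 (ERF13), is of the plant-specific AP2/ERF family. The HS log2FC was 9.69 (SE 0.30, adjusted p = 1.2e-14), 9.29 (SE 0.27, adjusted p = 5.69e-15) and 7.84 (SE 0.26, adjusted p = 4.12e-14) for Solyc01g098070 in rs2z35, rs2z36 and rs2z35 36. Solyc09g075600 had 1 read in all over the rs2z35 control libraries, 3 over those of rs2z36 and 2 over those of rs2z35 36, so its HS over control ratios of 1271 (95% counting interval 226 to 49780), 278 (100.3 to 1421) and 295 (82.6 to 2463) are loose. ERF13 had the smallest rs2z35 response of the set, 3.64 (SE 0.63, adjusted p = 9.44e-05), with 4.48 (SE 0.54, adjusted p = 1.85e-06) in rs2z36 and 5.19 (SE 0.59, adjusted p = 8.42e-07) in rs2z35 36.

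Small HSPs held 2 of the 28 described members, Solyc02g093600 and Solyc06g076540, both described as class I heat shock proteins. The 33 members without a description could not be sorted into any of these groups. Reads of near-identical class I copies may be shared between genes, which was not tested. Solyc02g093600 held 92.5, 51.4 and 87.01 CPM in rs2z35 HS, 146, 122 and 157 CPM in rs2z36 HS and 80.7, 106 and 75.6 CPM in rs2z35 36 HS, against 63.2, 97.3 and 64.3 CPM in WT HS. The 3 rs2z36 libraries were the highest of the 12, with log2FC 0.93 (SE 0.23, adjusted p = 0.0665) against WT, which did not pass. All 17 genes described as small HSPs rose in each mutant, with median log2FC of 8.76, 8.62 and 8.93 in rs2z35, rs2z36 and rs2z35 36, beside the medians of all tested genes given above. Of 32 other described chaperones, 19 rose and 2 fell in rs2z35, 20 rose and 2 fell in rs2z36, and 20 rose and 1 fell in rs2z35 36, and none was a member. The descriptions come largely from genes that the study listed for differences in these same samples, so these lists are not independent of the data.

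Carried over to the mutants, the WT limits held for most of the set. Both limits were met by 47 genes in rs2z35, 43 in rs2z36 and 44 in rs2z35 36, where 0.201, 0.184 and 0.205% of all genes met them, against 0.25% in WT. In all 3 mutants 37 of the 61 met both, and 10 met both in none. It was mostly the control limit that failed: the control mean stayed below 0.5 CPM for 50, 46 and 50 genes, and the HS mean reached 10 CPM for 57, 58 and 55. How much of this came from chance near the limits was not tested. Few other genes came inside, 2 in rs2z35, 2 in rs2z36 and 6 in rs2z35 36.

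Farthest outside the control limit was Solyc01g107080, an HXXXD-type acyltransferase, of the enzymes that attach acyl groups to plant secondary metabolites. Its control libraries held 0.736, 1.001 and 1.04 CPM in rs2z35, 1.47, 1.25 and 0.627 CPM in rs2z36 and 1.67, 2.79 and 2.36 CPM in rs2z35 36, against 0.567, 0.535 and 0.122 CPM in WT. No mutant control library overlapped WT, and the rs2z35 36 libraries were the highest. The gene was a member because these same WT control libraries were low, so this difference is a description, with no independent test. Against WT in control, rs2z35 36 was not called for this gene in the main fit, but was by DESeq2 (log2FC 2.46, adjusted p = 9.03e-06). HS raised it to 10.4, 21.96 and 20.7 CPM in rs2z35, 18.8, 10.6 and 13.7 CPM in rs2z36 and 29.1, 26.6 and 24.7 CPM in rs2z35 36, against 16.1, 13.7 and 12.9 CPM in WT HS. Its HS log2FC of 3.55 (SE 0.29, adjusted p = 1.49e-08) in rs2z35 36 was the smallest of the set there.

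Solyc03g096355, an unknown protein, and Solyc09g090760, with no description used here, lay just inside the control limit in WT and outside it in every mutant. Solyc03g096355 held 1.08, 0.501 and 0.801 CPM in rs2z35 control, 0.561, 0.749 and 0.697 CPM in rs2z36 control and 0.677, 1.17 and 1.18 CPM in rs2z35 36 control, against 0.416, 0.428 and 0.568 CPM in WT control. Solyc09g090760 held 0.852, 1.04 and 0.680 CPM in rs2z35 control, 0.950, 0.458 and 0.662 CPM in rs2z36 control and 1.12, 0.792 and 0.896 CPM in rs2z35 36 control, against 0.340, 0.678 and 0.406 CPM in WT control. In control, Solyc03g096355 overlapped WT in rs2z35 and rs2z36, and Solyc09g090760 did so in rs2z36 only. For both genes all rs2z35 36 control libraries stood above those of WT, which had made the choice. Both stayed far below their HS levels, with rs2z35 HS log2FC of 4.63 (SE 0.21, adjusted p = 4.18e-12) for Solyc03g096355 and 6.13 (SE 0.26, adjusted p = 1.21e-12) for Solyc09g090760. On the HS side, 4 genes fell short in rs2z35, among them ERF13 and 2 members that had only just met the HS limit in WT. Solyc09g074350 held 5.10, 13.1 and 6.35 CPM in rs2z35 HS, 9.66, 7.99 and 14.6 CPM in rs2z36 HS and 10.7, 11.3 and 6.78 CPM in rs2z35 36 HS, against 13.6, 5.61 and 11.4 CPM in WT HS. Solyc01g006050, a transmembrane protein 45B-like gene, held 9.76, 11.03 and 8.13 CPM in rs2z35 HS, 7.65, 6.28 and 5.47 CPM in rs2z36 HS and 5.42, 5.98 and 8.11 CPM in rs2z35 36 HS, against 10.7, 10.2 and 10.9 CPM in WT HS.

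Among the 3 mutants the HS level of most genes varied little. The highest mutant HS mean was at most 1.5 times the lowest for 41 genes, between 1.5 and 2 times for 15, and above 2 times for 5. The lowest mean was that of rs2z35 for 36 genes, of rs2z36 for 10 and of rs2z35 36 for 15. This count rests on single libraries: leaving out 1 mutant HS library, rs2z35 was lowest for 23 (without rs2z35 HS replicate 1) to 41 genes (without rs2z35 HS replicate 2).

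Tested between mutants, few of the 61 genes were called in HS. In the deposited HS counts the replicate number carried almost no variation: the mean square between replicate numbers over the mean square within was 0.00876 in the median over 18495 genes in HS, against 0.847 in control. The main fits, above and below, do not take this into account. A fit with the replicate number as a block ended 5 of the 8 calls named below. For rs2z35 36 against rs2z35 none of the 61 was called, where 0.0826% of all genes were called higher and 0.0372% lower. The unadjusted p was below 0.05 for 16 of the 61, and for 3376 of all 24218 genes. DESeq2 called 1 member (Solyc09g075600), and 49 members had an absolute log2FC below 0.5. For rs2z35 36 against rs2z36, 2 genes were lower and none higher, where 0.0743% of all genes were called lower and 0.0578% higher. For rs2z35 against rs2z36, 2 were lower and none higher, where 0.0702% were called lower and 0.0743% higher. In these 2 pairs the unadjusted p was below 0.05 for 17 and 15 of the 61, and for 2256 and 2884 of all genes. All 3 rs2z35 36 HS libraries lay above all 3 of rs2z35 for 9 of the 61 genes and below for 5, against 8.74 and 9.31% of all genes. They lay above those of rs2z36 for 8 and below for 7, against 7.51 and 6.99% of all genes. The rs2z35 HS libraries lay above those of rs2z36 for 3 and below for 9, against 9.36 and 8.34% of all genes.

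The MADS-box gene Solyc01g098070 was one of these. Its HS libraries held 65.2, 97.3 and 78.6 CPM in rs2z35, 133, 113 and 136 CPM in rs2z36 and 62.1, 56.99 and 56.7 CPM in rs2z35 36, against 77.7, 63.2 and 66.8 CPM in WT. All rs2z36 libraries were above those of every other genotype, and all rs2z35 36 libraries were below. The log2FC of rs2z35 36 against rs2z36 was −1.12 (SE 0.16, adjusted p = 0.00174), and it ran from −1.20 to −1.07 over 14 alternatives, with adjusted p above 0.01 when any rs2z35 36 HS library or rs2z36 HS replicate 1 or 3 was left out (up to 0.0166). Against WT, rs2z36 differed by log2FC 0.90 (SE 0.13, adjusted p = 0.00764), below the fold threshold.

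The class I small HSP Solyc06g076540 had 27.04, 17.4 and 22.3 CPM in rs2z35 HS, 42.7, 43.1 and 47.8 CPM in rs2z36 HS and 18.1, 24.4 and 15.2 CPM in rs2z35 36 HS, against 17.2, 18.5 and 21.6 CPM in WT HS. The 3 rs2z36 libraries stood above the other 9, which overlapped. Against rs2z36, it was lower in rs2z35 36 with a log2FC of −1.22 (SE 0.17, adjusted p = 0.0019) and in rs2z35 with −1.004 (SE 0.17, adjusted p = 0.00874). Against WT, it was higher in rs2z36 with a log2FC of 1.24 (SE 0.18, adjusted p = 0.00769). Leaving out rs2z35 36 HS replicate 1 or 3, or rs2z36 HS replicate 1 or 3, ended the call between rs2z35 36 and rs2z36 (log2FC −1.24 to −1.07), and 8 of 14 alternatives ended that between rs2z35 and rs2z36, among them each omission but that of rs2z35 HS replicate 1. The call against WT was lost when any HS library of rs2z36 or WT was left out, the log2FC then being 1.16 to 1.33. With the replicate block the adjusted p was 0.00631 for rs2z35 36 against rs2z36, which stayed called, 0.0226 for rs2z35 against rs2z36 and 0.0411 for rs2z36 against WT, which did not.

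Solyc07g009545, an unknown protein, had 31.3, 29.7 and 45.6 CPM in rs2z35 HS, 77.3, 93.2 and 111 CPM in rs2z36 HS and 90.96, 63.2 and 40.3 CPM in rs2z35 36 HS, against 32.8, 39.6 and 34.1 CPM in WT HS. Its rs2z36 libraries were above those of rs2z35 and WT, and rs2z35 36 spanned the gap between them. The difference of rs2z36 from WT was not called in the main fit. It was called by DESeq2 (log2FC 1.41, adjusted p = 1.49e-05). In edgeR it was called with the groups compared alone (1.41, 0.00642) or with all 24 libraries (1.40, 0.00268), and in no other setting. For rs2z35 against rs2z36 the log2FC was −1.40 (SE 0.24, adjusted p = 0.00978), a call that 10 of 14 alternatives lost, among them each omission of 1 HS library of either mutant and the replicate block (adjusted p = 0.0249). Solyc07g009585, also an unknown protein and a member, lies further along chromosome 7 with 5 genes between. It held 20.5, 14.5 and 21.3 CPM in rs2z35 HS, 32.6, 33.03 and 17.2 CPM in rs2z36 HS and 23.2, 22.9 and 33.2 CPM in rs2z35 36 HS, against 12.7, 16.98 and 15.96 CPM in WT HS.

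ERF13 had the widest spread among mutants, 3.85-fold between its highest and lowest HS mean. Its HS libraries held 7.08, 6.27 and 4.44 CPM in rs2z35, 32.5, 6.94 and 29.03 CPM in rs2z36 and 13.4, 29.3 and 16.9 CPM in rs2z35 36, against 8.004, 19.04 and 11.5 CPM in WT. Replicate 2 of rs2z36 stood apart from the other libraries of its group and next to those of rs2z35. The log2FC of rs2z35 against rs2z36 was −1.94 (SE 0.46, adjusted p = 0.0587), not past the threshold, and it was −2.37 and called without rs2z36 HS replicate 2. In control its rs2z36 libraries also differed, with 1.90, 0.458 and 0.731 CPM.

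Differences between mutants in the heat response itself, tested as an interaction in edgeR, were called for none of the 61 genes in any of the 3 pairs of mutants, and for none of all 24218 genes. The unadjusted p was below 0.05 for 5 members in rs2z35 36 against rs2z35, 5 in rs2z35 36 against rs2z36 and 2 in rs2z35 against rs2z36, and for 1529, 1106 and 1287 of all genes. DESeq2 called no member either, and 11, 4 and 3 of all genes. These counts do not show that the responses were alike.

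**Figure D2:**
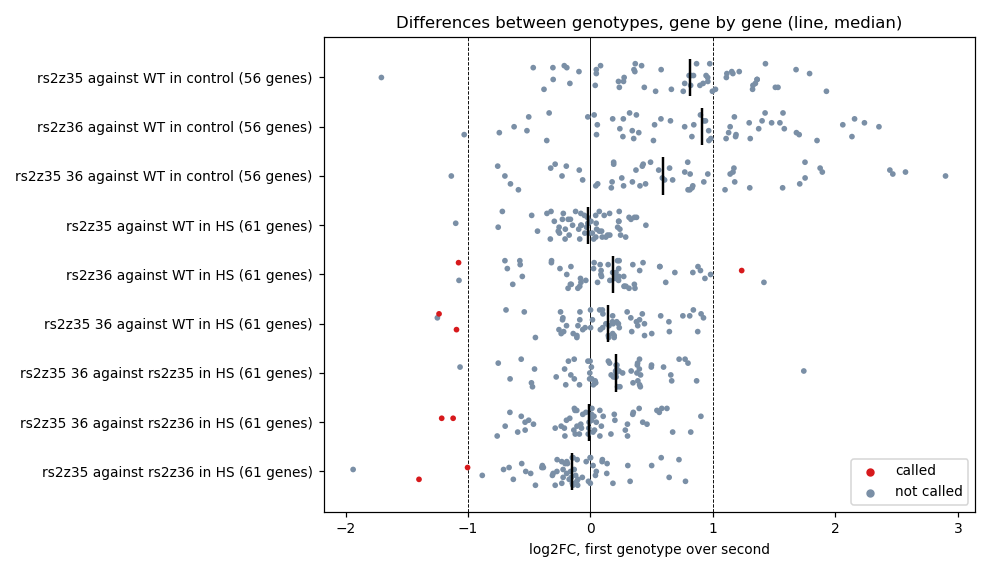
Fitted log2FC (x axis) of single genes (points) for the mutants against WT in control and in HS and for the pairs of mutants in HS, with the median as a line and called genes in red; members without a read in a group compared are left out in control. The HS medians lie between −0.15 and 0.21, and the control medians between 0.60 and 0.91 with no gene called.

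Set against WT in HS, few of the 61 genes were called in the mutants. The comparison is not neutral: genes just above 10 CPM in WT HS were chosen on those very libraries, which leans the mutants to lower values there. In rs2z35 none of the 61 passed, where 0.0259% of all genes were called higher and 0.00432% lower in edgeR. In rs2z36 1 was higher, the small HSP Solyc06g076540, and 1 lower, where 0.0863% of all genes were called higher and 0.0561% lower. In rs2z35 36 none was higher and 2 were lower, where 0.117% were called higher and 0.0734% lower. The unadjusted p was below 0.05 for 6, 20 and 20 of the 61 in rs2z35, rs2z36 and rs2z35 36. Among all 23162 tested genes it was so for 1983, 3524 and 3289. The median log2FC of the 61 was −0.02 in rs2z35, 0.18 in rs2z36 and 0.15 in rs2z35 36, beside medians of at most 0.0129 over all genes. Without overlap between libraries, 17 of the 61 genes were above WT and 6 below in rs2z35 36, against 9.31 and 9.18% of all genes, and 12 above and 6 below in rs2z36, against 9.78 and 10.4%. In both of these mutants the share above WT was larger among the 61 than among all genes, and why was not tested. In rs2z35 the counts were 3 above and 3 below, against 6.83 and 6.9% of all genes.

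The clearest case was Solyc11g008520, described as Dicer-like 2c. Dicer-like 2 proteins cut double-stranded RNA into small interfering RNAs, and tomato has several copies, between which reads may be shared. It held 41.1, 35.6 and 29.6 CPM in rs2z35 HS, 32.5, 33.4 and 33.6 CPM in rs2z36 HS and 20.5, 20.9 and 21.7 CPM in rs2z35 36 HS, against 44.8, 48.2 and 56.8 CPM in WT HS. The libraries fell into an order without overlap between rs2z35 36, the lowest, and the single mutants, and between these and WT, the highest. The means were 35.5 ± 5.72 CPM in rs2z35, 33.2 ± 0.560 CPM in rs2z36 and 21.0 ± 0.589 CPM in rs2z35 36, against 49.9 ± 6.15 CPM in WT (SD, n = 3 each). Solyc11g008520 fell in rs2z35 36 against WT with a log2FC of −1.24 (SE 0.12, adjusted p = 0.000571), and the call held in all 14 alternatives (log2FC −1.32 to −1.14). Against rs2z35, rs2z35 36 had a log2FC of −0.75 (SE 0.13, adjusted p = 0.00879), past the adjusted p (0.02 with the replicate block) and below the fold threshold. Control libraries of Solyc11g008520 held 1, 3 and 4 reads in rs2z35, 4, 6 and 2 in rs2z36 and 3, 3 and 3 in rs2z35 36, against 0, 5 and 2 in WT. Its HS log2FC was 8.33 (SE 0.23, adjusted p = 3.71e-15) in rs2z35, 7.65 (SE 0.22, adjusted p = 5.45e-15) in rs2z36 and 7.40 (SE 0.23, adjusted p = 1.94e-14) in rs2z35 36.

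Solyc07g032390, an unknown protein, held 9.25, 13.6 and 10.8 CPM in rs2z35 HS, 6.76, 8.26 and 6.57 CPM in rs2z36 HS and 8.17, 5.82 and 7.41 CPM in rs2z35 36 HS, against 17.2, 12.9 and 16.03 CPM in WT HS. Every library of rs2z36 and of rs2z35 36 was below every WT library. The log2FC against WT was −1.09 (SE 0.17, adjusted p = 0.00805) in rs2z35 36, which passed, and −1.07 (SE 0.17, adjusted p = 0.0109) in rs2z36, which just missed the adjusted p. In rs2z36 it was called with DESeq2 (log2FC −1.08, adjusted p = 1.85e-05) and in edgeR without the filter on low counts (−1.07, 0.00756) or with all 24 libraries in the fit (−1.09, 0.00444). The call in rs2z35 36 was lost when any HS library of the pair was left out, and with the replicate number as a block (adjusted p = 0.0517).

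Solyc05g056550, a protein kinase, held 16.8, 23.5 and 17.01 CPM in rs2z35 HS, 11.1, 11.9 and 11.7 CPM in rs2z36 HS and 19, 14.4 and 17.3 CPM in rs2z35 36 HS, against 25.9, 22.4 and 26.03 CPM in WT HS. The rs2z36 libraries were the lowest and close to each other. The log2FC of rs2z36 against WT was −1.08 (SE 0.14, adjusted p = 0.00347), and without 1 HS library of the pair it was −1.14 to −1.04 and no longer called, nor was it with the replicate block (adjusted p = 0.0255). The GATA gene Solyc09g075600 held 21.05, 15.6 and 12.6 CPM in rs2z35 HS, 10.9, 13.3 and 10.5 CPM in rs2z36 HS and 8.62, 6.69 and 8.18 CPM in rs2z35 36 HS, against 13.2, 18.96 and 24.2 CPM in WT HS. Its rs2z35 36 libraries were below all others, with log2FC −1.25 (SE 0.23, adjusted p = 0.021) against WT and −1.07 (SE 0.25, adjusted p = 0.037) against rs2z35, neither past the threshold in edgeR, and both called by DESeq2 (log2FC −1.26 and −1.05).

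**Figure D3:**
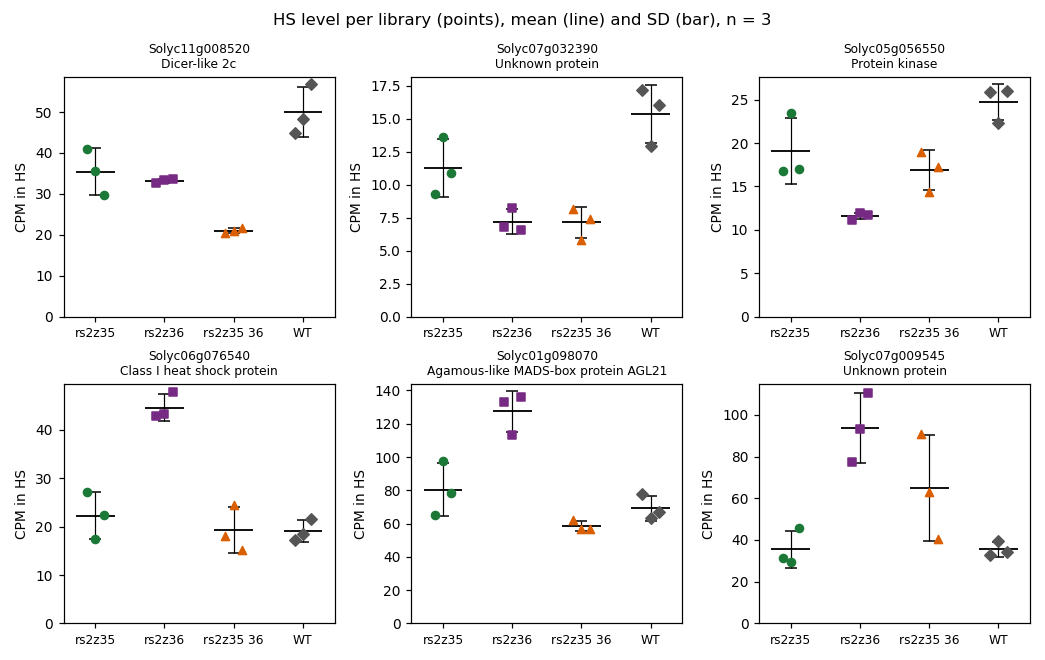
CPM in single HS libraries (points), group means (lines) and SD (bars, n = 3) of the 6 genes called between mutants or against WT in HS, for rs2z35, rs2z36, rs2z35 36 and WT. Solyc11g008520 is lowest in rs2z35 36 (20.5–21.7 CPM), and Solyc01g098070 and Solyc06g076540 are highest in rs2z36.

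At 25 °C the set was read more in every mutant library than in every WT library. Summed over the 61 genes, control levels were 16.1–18.5 CPM in rs2z35, 16.5–23.5 CPM in rs2z36 and 16.6–20.04 CPM in rs2z35 36, against 10.5–11.3 CPM in WT. In HS the sums overlapped, with 3095–4045 CPM in rs2z35, 3548–4307 CPM in rs2z36 and 3633–4048 CPM in rs2z35 36, against 3396–3766 CPM in WT. The genes were chosen for low WT control values, which leans WT to the low side, so the control difference is a description.

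Gene by gene, no control difference passed, in a comparison that reuses the WT values that made the choice. Of the 61, 57 had enough reads to be tested in the control libraries, and edgeR called none in any mutant, where 0.0425, 0.153 and 0.127% of all genes were called higher in rs2z35, rs2z36 and rs2z35 36 and 0.0085, 0.034 and 0.0467% lower. The unadjusted p was below 0.05 for 14, 15 and 12 of the 57, and for 2471, 3317 and 3997 of all 23532 tested genes. DESeq2 called 1 member, Solyc01g107080 in rs2z35 36. Leaving out the members with no read in a group compared, the median log2FC was 0.81 in rs2z35, 0.91 in rs2z36 and 0.60 in rs2z35 36 over 56 genes each, and 47, 48 and 45 of these were positive. All 3 control libraries lay above those of WT for 13 genes in rs2z35, 18 in rs2z36 and 13 in rs2z35 36, where 8.78, 9.08 and 12% of all genes lay above. They lay below for none, against 8.5, 8.78 and 11.7% of all genes. The 3 comparisons share the WT libraries, so they are not independent of each other.

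Strongly heat-induced genes outside the set showed a like pattern. Control level as a share of the HS level of the same genotype, in the median over the 22 members at 50 CPM or more, was 0.234–0.267% in the rs2z35 control libraries, 0.182–0.341% in rs2z36 and 0.217–0.314% in rs2z35 36, against 0.116–0.141% in WT. Over 10 genes outside the set, with the lowest such ratios among all genes above 500 CPM in HS, it was 0.184–0.249% in rs2z35, 0.184–0.309% in rs2z36 and 0.161–0.190% in rs2z35 36, against 0.0779–0.0898% in WT. These 10 were chosen over all 4 genotypes alike. The part of this difference between control libraries in the values of the 61 genes was not tested.

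**Figure D4:**
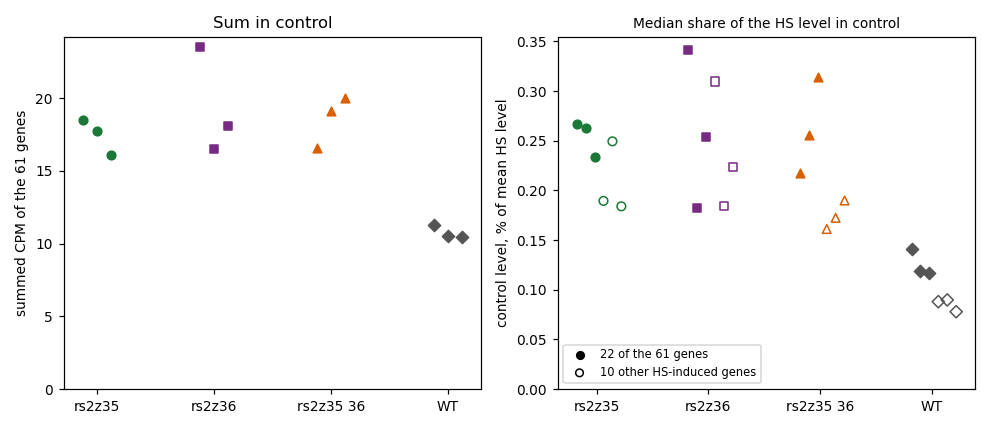
Summed control CPM of the 61 genes in single libraries (left), and the median control level as percent of the mean HS level (right) in 22 of the 61 genes (filled) and in 10 other heat-induced genes (open), for rs2z35, rs2z36, rs2z35 36 and WT. Each WT library (10.5–11.3 CPM summed) lies below each mutant library.

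By their identifiers, the 61 genes lie on all 12 chromosomes. Chromosome 9 holds 10 of them, or 5.67 per 1000 genes with 10 or more reads, and chromosome 6 holds 9, or 4.19 per 1000. Over all chromosomes, 61 of 24414 such genes (0.25%) were members, and whether they gather on some chromosomes was not tested. Chromosome 10 holds 1, Solyc10g051090. A few lie next to each other: Solyc03g026270 and Solyc03g026280 have no other gene between them, Solyc09g061550 and Solyc09g061570 have 1, as do Solyc11g044860 and Solyc11g044875, and the small HSP gene Solyc06g076540 and Solyc06g076580 have 3. The libraries kept no strand, so where such genes overlap, sense and antisense reads cannot be told apart.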

How the data were processed

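Leaf RNA of 4 genotypes after HS and in control was sequenced in 24 libraries from a non-directional kit. The authors mapped the reads with STAR to SL4.0 (ITAG4.0) and deposited raw read counts per gene from HTSeq 0.9.1, one table per library, the HS counts after adjustment with ComBat-Seq. What was computed here started from these deposited counts, under R 4.3.3. Genes with fewer than 10 reads over the libraries of a fit were dropped. The heat responses and the comparisons between mutants were fitted on the 18 mutant libraries, and mutants against WT on the 12 libraries of a condition, with edgeR 4.0.16 (TMM, quasi-likelihood test, Benjamini-Hochberg). Called means that the log2FC exceeds 1 in size with an adjusted p under 0.01, the study's thresholds. CPM come from edgeR's TMM over all 24 libraries. The tests were checked on simulated counts, with changes set in well-read genes only and no batch adjustment. That check does not cover genes with few control reads, nor the tests of differences between heat responses. Replicate pairs differed by more than sampling noise (chi-square per degree of freedom 4.58 to 27.0), so each counts as 1 sample. Alternatives were DESeq2 1.42.0, other scalings, filters and sets of libraries, a replicate block, and leaving out each library. The genes named are the 10 highest in mutant HS, those called, those farthest outside or nearest to the limits, and up to 3 of each described group. Solyc06g066360 and Solyc09g073015 and the neighbouring genes Solyc03g026270, Solyc03g026280, Solyc06g076580 and Solyc11g044875 were named after their values were seen. Gene descriptions are those the study supplied. Members and lists were chosen with earlier results of these data known.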

Additional observations from a re-analysis of the deposited data

How the results depend on the processing

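The heat response of all 61 genes was called in each mutant in all 15 settings, with a lowest log2FC of 2.98 in rs2z35, 3.02 in rs2z36 and 2.84 in rs2z35 36. Scaling by total counts moved the median log2FC of all genes to −0.69, −0.71 and −0.74 and that of the 61 to 7.20, 7.12 and 7.17. With that scaling the choice itself gave 44 members, and 60 to 62 otherwise. Counts of called members moved more. In rs2z35 36 against rs2z35 in HS, DESeq2 called 1 in place of 0, and 103 of all genes in place of 29. In rs2z35 36 against rs2z36, the fit on the groups compared alone called 1 in place of 2, and leaving out 1 library 0 to 2. Over all genes these fits called 32 and 10 to 21, against 32 in the main fit. In rs2z35 against rs2z36, DESeq2 size factors, total counts and filterByExpr each called 1 in place of 2, the groups alone 0, and leaving out 1 library 0 to 1. Over all genes these fits called, in this order, 34, 35, 35, 6 and 15 to 30, against 35 in the main fit. In rs2z36 against WT in HS, DESeq2 and the fit on all 24 libraries each called 4 in place of 2, and leaving out 1 library 0. In rs2z35 36 against WT in HS, the groups alone and each omission of 1 library called 1 in place of 2. In control, the fit on all 24 libraries called 1 in rs2z36 (Solyc05g010210) and 1 in rs2z35 36, as did DESeq2 and no filter in rs2z35 36, in place of 0. The cause of these moves was not tested. Genes lowest in rs2z35 in HS numbered 23 to 41 with 1 library left out, an alternative added after seeing the data, against 36.

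Whether the replicate numbers pair the HS samples cannot be read from the counts. Same-numbered libraries correlated at −0.58 to −0.03 in HS and −0.40 to 0.50 in control, with every same-numbered pair above 0.1 in 0 of 6 pairs of HS groups and 1 of 6 pairs of control groups, but in HS the variation between replicate numbers was nearly absent (mean-square ratio 0.00876, against 0.847 in control), which itself gives correlations below 0. With the replicate block, 0 members were called in rs2z35 against rs2z36 in HS in place of 2, 0 in rs2z36 against WT in HS in place of 2, and 1 in rs2z35 36 against WT in HS in place of 2. The search for promoter motifs was not run. A mutant control library held 396 to 545 reads over the 61 genes, and what this depth can detect was not tested.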
